A study of Homo sapiens with 9 samples.

Results

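The 54 genes described here encode collagens, laminins, integrins, and the glycoproteins and enzymes of the extracellular matrix. They were chosen by name, with earlier results of these data known. All 54 matched a gene of the count table, which lists 63187 genes. A gene was tested where 3 or more of the 9 libraries had 10 counts of it, which kept 51 of the 54 and 16030 genes in all. BEAS-2B is an immortalized line of human bronchial epithelial cells, grown here in medium with 10% fetal bovine serum. Control cells were left untreated. PG/VG cells received for 24 h a 2% dilution of aerosol condensate from the carrier liquid (propylene glycol and vegetable glycerine), and EC cells received for 24 h a 2% dilution of condensate from an e-liquid with 18 mg/ml nicotine and a Virginia tobacco flavor. Each condition had 3 RNA-seq libraries, replicates 2, 3 and 4. The batch in the labels is the replicate number, so that each batch held 1 library of every condition. The study's methods call the 3 libraries of a condition biological replicates. The p-values measure the spread left between them after the level of each batch is taken out. All libraries came from this 1 cell line.

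Epithelial cells rest on a basement membrane, a sheet in which laminins and collagen IV form networks that nidogens, perlecan and agrin join together. Further from the cell, fibrillar collagens, fibronectin, fibrillins and other glycoproteins form the interstitial matrix, and lysyl oxidases and sulfatases modify it after secretion. Integrins, each a pair of 1 alpha and 1 beta subunit, bind these proteins and connect them to the cytoskeleton, and airway epithelium changes its set of matrix and integrin genes during wound repair.

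The libraries held 16168260 to 24917838 counts assigned to genes, with medians of 16648310 in control, 22899653 in PG/VG and 23332632 in EC, so the control libraries were the shallower ones. Batch 4 stood apart from the others in every condition, with a chi-square per gene (of the counts of 2 libraries) of 35.0 to 52.8 between replicate 4 and its group mates against 3.66 to 12.2 between replicates 2 and 3. Of 12 epithelial markers, the keratins KRT7 and KRT8 were abundant (388 to 1037 and 752 to 1174 CPM, counts scaled by TMM-adjusted library size), whereas EPCAM did not exceed 1.93 CPM, CDH1 did not exceed 1.59 CPM, and GRHL2 and KRT5 had at most 0.050 and 0.056 CPM. VIM (822 to 1114 CPM) and CDH2 (247 to 375 CPM), which mark mesenchymal cells, were abundant, while the fibroblast markers DCN and LUM stayed at or below 0.079 and 0.674 CPM. The summed level of 6 endothelial markers was 5.28 to 10.1 CPM and that of 6 leukocyte markers 3.38 to 9.07 CPM over the 9 libraries.

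In EC cells, versican (VCAN), fibulin-5 (FBLN5) and the sulfatase SULF2 rose, and periostin (POSTN), fibronectin (FN1), tenascin-C (TNC) and integrin beta 8 (ITGB8) fell. Of the 51 tested genes, 18 were called as differentially expressed in EC vs. control, 9 higher and 9 lower, by the quasi-likelihood test of edgeR, with p-values adjusted by Benjamini-Hochberg over all 16030 genes and a threshold of 0.05. That is 35.3% of the 51 genes, against 13.5% of all tested genes (8.07% higher and 5.38% lower). With library size as the only scaling the split was 13 higher and 7 lower. In PG/VG vs. control, 14 of the 51 were called (27.5%), 13 higher and 1 lower, against 4.54% of all tested genes (2.63% higher and 1.90% lower). Both comparisons use the same 3 control libraries. The summed level of the 12 listed mesenchymal markers, most of it from VIM and CDH2, was 1445 to 1538 CPM in PG/VG against 1648 to 1809 CPM in control. Of the 9 tested, VIM (−0.27 ± 0.08 (SE, adjusted p = 0.0441)) and THY1 (−0.26 ± 0.07 (SE, adjusted p = 0.0315)) fell and PDGFRB (0.31 ± 0.08 (SE, adjusted p = 0.0347)) rose. The 12 epithelial markers summed to 1723 to 2739 CPM in PG/VG and 1777 to 2846 CPM in control, with 0 of 7 tested called by edgeR or DESeq2 and 2 at an unadjusted p under 0.05 in edgeR. The part of these markers in the PG/VG calls was not tested. In EC vs. PG/VG, 3 of the 51 were called (5.88%), FN1, SULF1 and LOXL2, all lower in EC, against 0.855% of all tested genes (0.299% lower). Every call had the same direction in all 3 batches, which the test itself favours because it uses the differences within batches.

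Without the batch as a replicate block in the fit, 0 of the 51 were called in each of the 3 comparisons, and 13, 7 and 6 had an unadjusted p under 0.05 in edgeR. The median log2 fold change (LFC) of the 51 genes was 0.0037 in EC vs. control beside 0.0078 over all tested genes, and 0.097 in PG/VG vs. control beside 0.013. The absolute LFC had a median of 0.175 in EC vs. control for the 51 genes and 0.157 for all tested genes.

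**Figure D1:**
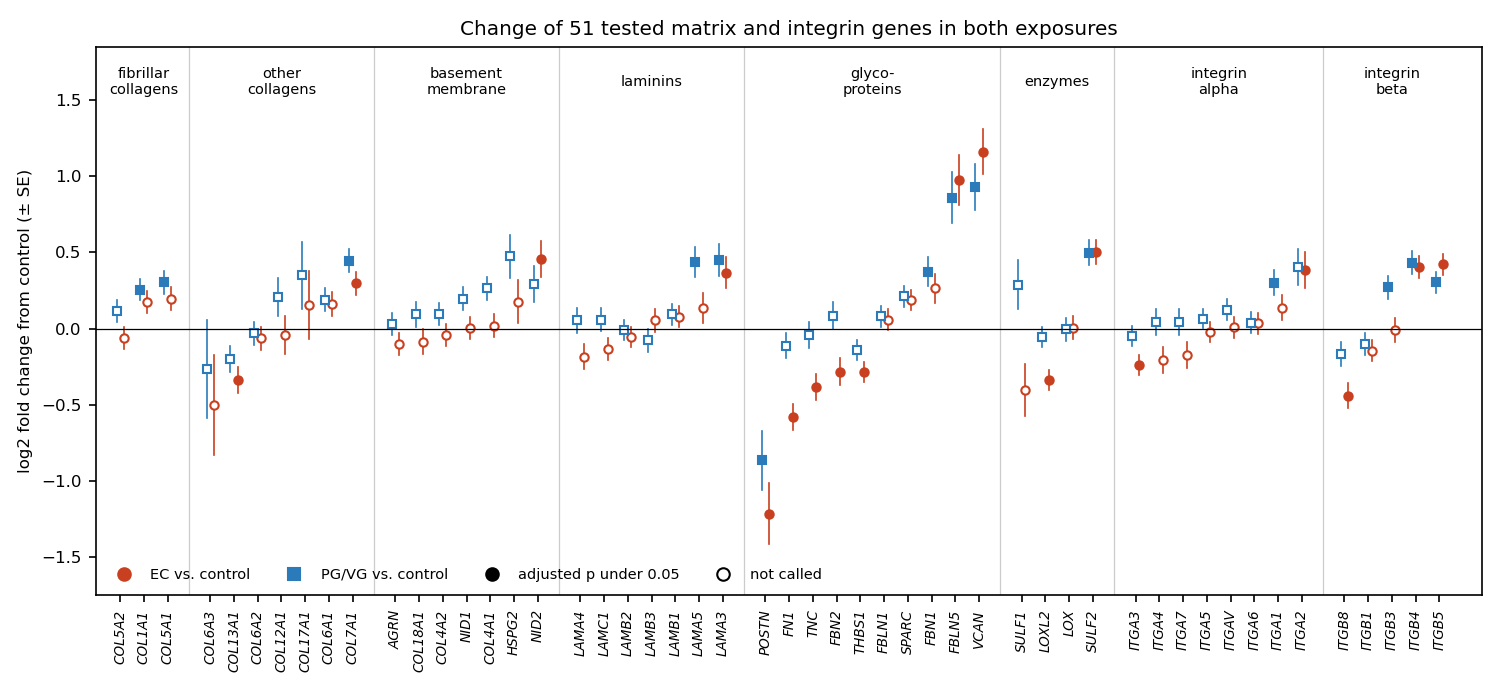
The vertical axis is the log2 fold change from control (± SE of the fit) for each of the 51 tested genes, grouped by role. Red circles show EC and blue squares PG/VG, and filled symbols were called at an adjusted p under 0.05. VCAN, at 1.16, and POSTN, at −1.22, lie farthest from 0 in EC.

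Levels between genes were compared as TPM, which divides the counts by exon length before scaling to a common total. The exon length was that of all annotated exons of a gene merged, so the order of genes also depends on the annotation. FN1, the adhesive glycoprotein of the interstitial matrix, led the list at 1200 ± 260.4 TPM (SD, n = 3) in control, followed by SPARC, a collagen-binding glycoprotein, at 701 ± 3.88 TPM and by ITGA3, the alpha subunit of a laminin receptor, at 646 ± 95.7 TPM. The level of SPARC and that of ITGA3 differed by less than the SD of ITGA3. THBS1 (thrombospondin-1, 536 ± 155 TPM), ITGB1 (504 ± 36.1 TPM) and the collagen cross-linking enzyme LOXL2 (501 ± 49.3 TPM) came next, and these neighbours in the order also lay within their SDs. By TPM the most abundant laminin chain was LAMC1, at 323 ± 14.8 TPM. Its exon length was 8446 bases against 18592 for LAMB1, and their mean control levels were 633 and 451 CPM (counts scaled by library size). By mean control CPM, ITGB1 stood above ITGA3, at 1701 against 1469. All 54 genes together took 1.54% to 1.99% of the counts of a library. FN1 alone made up 21.5% to 28.3% of their counts in control, 19.6% to 26.4% in PG/VG and at most 23.2% in EC.

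Some chains of multi-chain collagens were near 0. COL1A1 encodes the alpha 1 chain of collagen I, which usually assembles with the alpha 2 chain of COL1A2. COL1A1 had 915 to 2606 counts in the 9 libraries. COL1A2 had 0 counts in all 3 control libraries, which allows up to 0.169 to 0.191 CPM (3 counts per library, counting error only), and 5, 1 and 0 counts in PG/VG and 10, 1 and 0 in EC replicates 2, 3 and 4. COL3A1, the chain of collagen III, had 3 to 11 counts and reached 10 counts in 2 libraries only. ITGB6, an integrin subunit of injured airway epithelium, had 0 to 3 counts. These are the 3 genes that were not tested. COL6A3 lay just inside the filter with 16 to 29 counts per library. The partner chains of COL6A3 in collagen VI stood far above it, with 69.4 ± 3.34 TPM for COL6A1 and 53.9 ± 11.4 TPM for COL6A2 in control against 0.261 ± 0.0416 TPM for COL6A3.

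**Figure D2:**
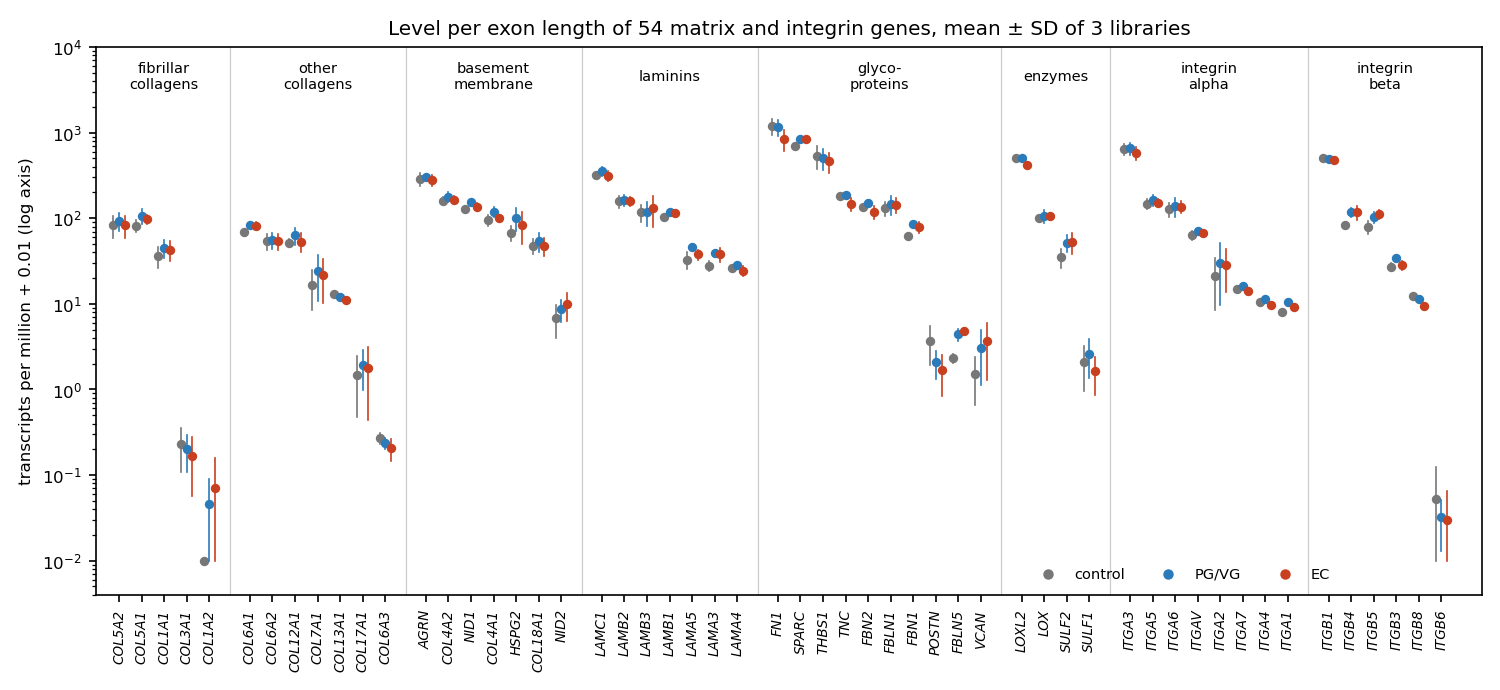
TPM plus 0.01 is drawn on a log axis for all 54 genes, with the mean ± SD of 3 libraries per condition (grey for control, blue for PG/VG, red for EC). FN1, SPARC and ITGA3 are at the top, whereas COL1A2, COL3A1, COL6A3 and ITGB6 are below 1 TPM in every condition.

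The glycoproteins and proteoglycans held the most calls in EC vs. control. Of 10 genes, 7 were called in EC vs. control (2 higher and 5 lower), beside 13.5% of all tested genes. In PG/VG vs. control 4 of the 10 were called (3 higher and 1 lower), beside 4.54% of all tested genes. The sequences just before the start sites of the pair that rose most (VCAN and FBLN5) and of the pair that fell most (POSTN and FN1) in EC are shown first, because they are the regulatory DNA next to the largest changes among the 51 genes. They come from RefSeq on GRCh38.p14 and are written 5′ to 3′ in the direction of the gene, ending at the base before the start site. Capitals mark matches, on either strand, to 4 motifs, which are the cyclic AMP response element (CRE, TGACGTCA), the AP-1 site (TGANTCA), the core of the dioxin response element (GCGTG) and the TATA box (TATAAA). The genes are VCAN (ENSG00000038427), FBLN5 (ENSG00000140092), POSTN (ENSG00000133110) and FN1 (ENSG00000115414), and the windows are chr5:83471494-83471743 (plus strand) for VCAN, chr14:91947695-91947944 (minus strand) for FBLN5, chr13:37598769-37599018 (minus strand) for POSTN and chr2:215436069-215436318 (minus strand) for FN1.
VCAN: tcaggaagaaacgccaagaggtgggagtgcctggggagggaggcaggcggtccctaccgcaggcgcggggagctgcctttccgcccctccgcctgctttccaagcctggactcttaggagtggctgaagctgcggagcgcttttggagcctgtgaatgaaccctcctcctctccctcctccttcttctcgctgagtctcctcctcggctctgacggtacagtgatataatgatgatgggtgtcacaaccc
FBLN5: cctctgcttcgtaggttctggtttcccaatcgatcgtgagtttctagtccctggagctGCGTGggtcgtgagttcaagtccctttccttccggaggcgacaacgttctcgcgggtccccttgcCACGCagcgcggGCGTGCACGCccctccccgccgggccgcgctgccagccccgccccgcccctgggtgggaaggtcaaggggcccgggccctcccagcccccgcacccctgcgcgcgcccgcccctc
POSTN: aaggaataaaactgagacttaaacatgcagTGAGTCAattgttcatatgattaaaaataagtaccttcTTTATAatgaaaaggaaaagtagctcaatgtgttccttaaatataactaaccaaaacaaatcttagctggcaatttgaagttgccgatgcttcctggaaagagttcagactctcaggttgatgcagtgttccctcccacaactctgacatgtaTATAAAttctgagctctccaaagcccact
FN1: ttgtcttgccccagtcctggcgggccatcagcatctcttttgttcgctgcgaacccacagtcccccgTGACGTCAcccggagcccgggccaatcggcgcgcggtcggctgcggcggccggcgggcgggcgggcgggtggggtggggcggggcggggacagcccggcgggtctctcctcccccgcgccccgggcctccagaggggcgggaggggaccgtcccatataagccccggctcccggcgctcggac
The VCAN window held none of the 4 motifs. In the FBLN5 window the dioxin core was found 4 times, beginning 192, 127, 115 and 110 bases before the start site, and the last pair of matches lay side by side on opposite strands. The POSTN window had an AP-1 site 220 bases and TATA boxes 182 and 29 bases before the start. The FN1 window had a CRE 183 bases before it. Of all 35116 RefSeq windows of this length, 1.65% held a CRE, 6.57% an AP-1 site, 32.2% a dioxin core and 10.7% a TATA box, and among the 41 tested genes with a window the shares were 2.44%, 4.88%, 26.8% and 14.6%. A match describes letters only, and binding was not measured in these libraries.

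VCAN encodes versican, a large chondroitin sulfate proteoglycan of provisional matrix. VCAN measured 3.05, 3.90 and 8.44 CPM in control, 6.92, 5.85 and 16.5 in PG/VG and 6.23, 8.81 and 19.9 in EC replicates 2, 3 and 4. Both exposed libraries were above the control of their batch in all 3 batches, and the groups overlapped across batches, with batch 4 high throughout. The LFC of VCAN was 1.16 ± 0.15 (SE, adjusted p = 2.06e-05) in EC vs. control, a fold of 2.24, and 0.93 ± 0.15 (SE, adjusted p = 0.00103) in PG/VG vs. control. FBLN5, which organizes elastic fibres, measured 3.62, 2.91 and 3.49 CPM in control, 7.09, 5.36 and 5.75 in PG/VG and 6.23, 6.77 and 6.75 in EC. Every exposed library lay above every control library. The LFC of FBLN5 was 0.98 ± 0.16 (SE, adjusted p = 0.000357) in EC vs. control, a fold of 1.97, and 0.86 ± 0.17 (SE, adjusted p = 0.00382) in PG/VG vs. control. The PG/VG call on FBLN5 was lost without PG/VG replicate 2 (LFC 0.73 to 0.92), where the range in parentheses, here and for other lost calls, is over the 9 fits that each left out 1 library.

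POSTN, a matrix protein secreted by injured epithelium and fibroblasts, moved the other way and was the gene with the lowest LFC among the 51. POSTN measured 5.78, 6.25 and 2.08 CPM in control, 3.11, 3.01 and 1.42 in PG/VG and 2.26, 2.89 and 0.893 in EC. The exposed libraries of each batch were below its control, and batch 4 was low in every condition. The LFC of POSTN was −1.22 ± 0.20 (SE, adjusted p = 0.000260) in EC vs. control, a fold of 0.430, and −0.87 ± 0.19 (SE, adjusted p = 0.0117) in PG/VG vs. control. The PG/VG call on POSTN was lost without control replicate 2 or 3 or PG/VG replicate 2 or 3 (LFC −0.73 to −0.98). VCAN, FBLN5 and POSTN were low genes, with 1.51 ± 0.852, 2.30 ± 0.275 and 3.71 ± 1.80 TPM in control.

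FN1 fell in EC and was the most abundant gene of the list. FN1 measured 5233, 5545 and 3596 CPM in control, 5372, 4621 and 3292 in PG/VG and 3138, 4150 and 2360 in EC replicates 2, 3 and 4. Each EC library was below the control and the PG/VG library of its batch, and the groups overlapped across batches. The LFC of FN1 was −0.58 ± 0.09 (SE, adjusted p = 0.000113) in EC vs. control, a fold of 0.668, −0.11 ± 0.08 (SE, adjusted p = 0.495) in PG/VG vs. control, and −0.47 ± 0.09 (SE, adjusted p = 0.00694) in the direct test of EC vs. PG/VG. The direct test on FN1 missed the threshold without PG/VG replicate 2 or 4 or EC replicate 4 (LFC −0.35 to −0.59) and without batch 4. The keratins KRT7, KRT8 and KRT18 fell in EC vs. control, with LFCs of −0.45 ± 0.07 (SE, adjusted p = 0.000202), −0.25 ± 0.07 (SE, adjusted p = 0.0177) and −0.46 ± 0.07 (SE, adjusted p = 0.000125). These 3 were the called genes among the 7 tested epithelial markers. The other 4 were not called and had LFCs above 0, up to 0.575, and the median of the 7 was 0.184. The summed level of the 12 listed epithelial markers, most of it from KRT7, KRT8 and KRT18, was 1777 to 2846 CPM in control and 1462 to 2289 CPM in EC. Of 9 tested mesenchymal markers, 2 rose and 3 fell in EC, and the summed level of the 12 listed mesenchymal markers was 1648 to 1809 CPM in control and 1373 to 1604 CPM in EC. The part of either marker set in the FN1 result was not tested.

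TNC encodes tenascin-C, an anti-adhesive glycoprotein of wounds. TNC measured 387, 413 and 414 CPM in control, 419, 378 and 380.0 in PG/VG and 283, 371 and 279 in EC. All 3 EC libraries lay below all 3 control libraries, while the PG/VG libraries lay on both sides of the control range. The LFC of TNC was −0.39 ± 0.08 (SE, adjusted p = 0.00458) in EC vs. control and −0.042 ± 0.08 (SE, adjusted p = 0.835) in PG/VG vs. control, and the direct test of EC vs. PG/VG gave −0.34 ± 0.08 (SE, adjusted p = 0.0586). The EC call on TNC held in each of the 9 fits that left out 1 library, but not without all of batch 4. Thrombospondin-1 (THBS1), which binds collagens and activates latent TGF-beta, measured 1340, 1318 and 758 CPM in control, 1241, 1169 and 686 in PG/VG and 1062, 1099 and 636 in EC. THBS1 was lower in EC than in control within each batch, and the groups overlapped across batches, with batch 4 low in every condition. The LFC of THBS1 was −0.28 ± 0.06 (SE, adjusted p = 0.00530) in EC vs. control and −0.14 ± 0.06 (SE, adjusted p = 0.217) in PG/VG vs. control.

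The fibrillins form the microfibrils that carry elastic fibres. FBN2 measured 549, 582 and 564 CPM in control, 653, 581 and 556 in PG/VG and 391, 538 and 467 in EC. The highest EC library of FBN2 was just below the lowest control library. The LFC of FBN2 was −0.28 ± 0.09 (SE, adjusted p = 0.0408) in EC vs. control, and this call was lost without control replicate 2, 3 or 4 or EC replicate 2 or 4 (LFC −0.16 to −0.40), without batch 4, and with library size as the only scaling. FBN1 measured 256, 268 and 281 CPM in control, 388, 332 and 322 in PG/VG and 280.3, 371 and 318 in EC. All PG/VG libraries of FBN1 were above all control libraries. The LFC of FBN1 was 0.37 ± 0.09 (SE, adjusted p = 0.0316) in PG/VG vs. control, lost without control replicate 2 or 3, PG/VG replicate 2 or EC replicate 4 (LFC 0.22 to 0.46) and without batch 4, and 0.26 ± 0.09 (SE, adjusted p = 0.0745) in EC vs. control. SPARC and FBLN1 were not called in either exposure. SPARC came near the threshold, at 0.19 ± 0.07 (SE, adjusted p = 0.0588) in EC and 0.21 ± 0.07 (SE, adjusted p = 0.0680) in PG/VG vs. control. Every exposed library of SPARC was above every control library. FBLN1, a fibronectin-binding fibulin, had 0.058 ± 0.07 (SE, adjusted p = 0.649) in EC and 0.079 ± 0.07 (SE, adjusted p = 0.574) in PG/VG vs. control.

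**Figure D3:**
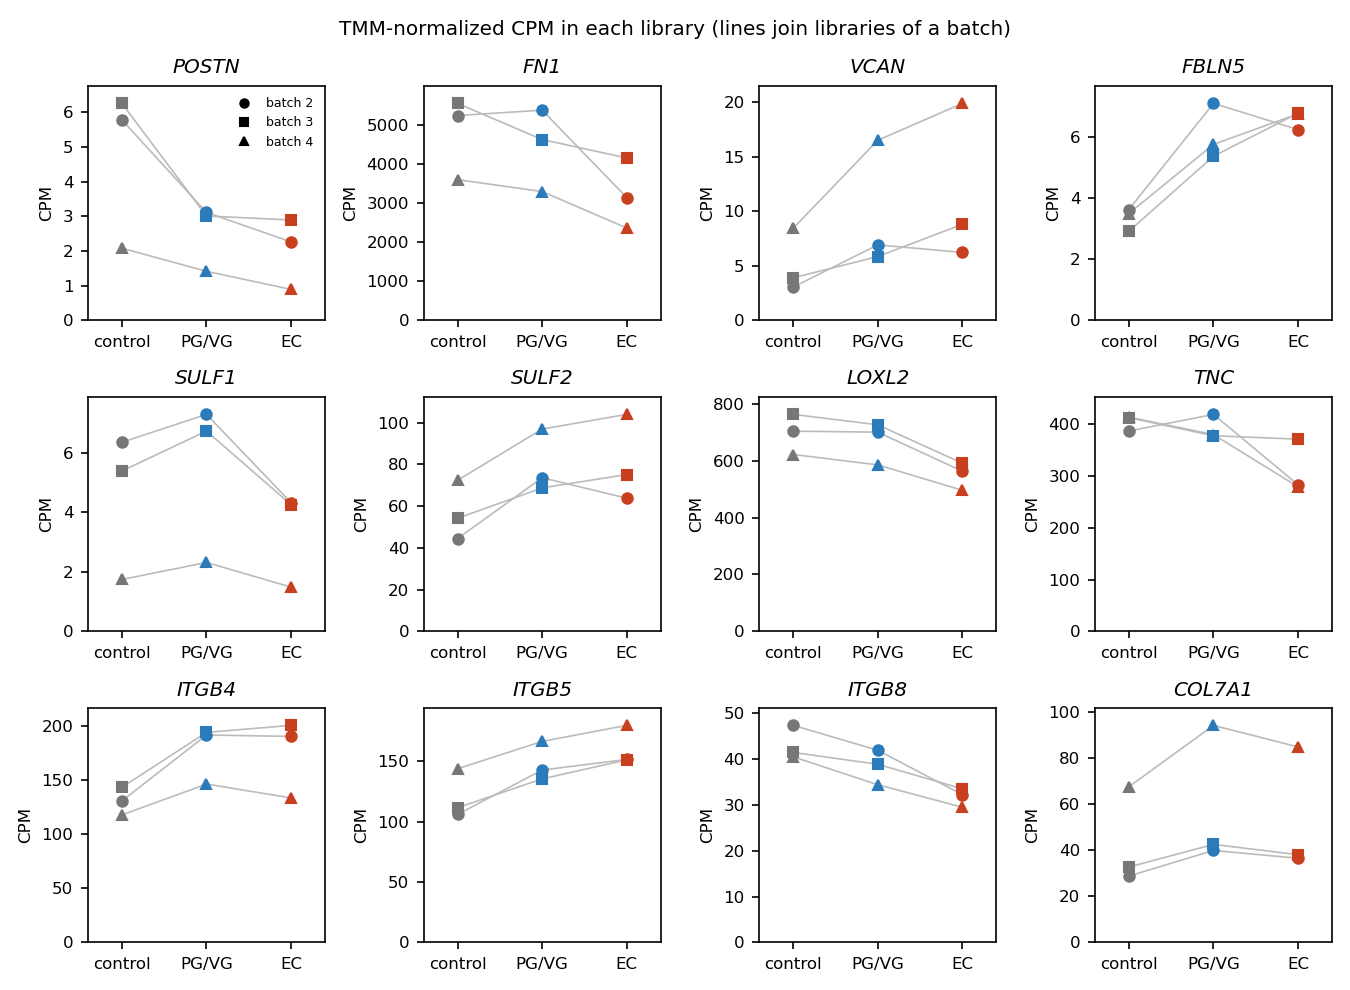
Each panel plots one gene, with TMM-normalized CPM on the vertical axis from 0 and the 9 libraries by condition. Circles, squares and triangles are batches 2, 3 and 4, and a line joins the libraries of a batch. FBLN5 rises from control in every batch, FN1 and LOXL2 are lowest in EC in every batch, and batch 4 stands apart for POSTN, VCAN, SULF1 and COL7A1.

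The 4 matrix-modifying enzymes differed among themselves. SULF1 and SULF2 are extracellular sulfatases that remove sulfate from heparan sulfate. SULF2 measured 44.5, 54.2 and 72.4 CPM in control, 73.7, 68.8 and 97.0 in PG/VG and 63.8, 75.2 and 104 in EC. Both exposed libraries of SULF2 were above the control of their batch in all 3 batches. The LFC of SULF2 was 0.50 ± 0.08 (SE, adjusted p = 0.000227) in EC vs. control and 0.50 ± 0.08 (SE, adjusted p = 0.00111) in PG/VG vs. control. SULF1 measured 6.35, 5.39 and 1.75 CPM in control, 7.29, 6.73 and 2.32 in PG/VG and 4.32, 4.26 and 1.49 in EC. In each batch, SULF1 was highest in PG/VG and lowest in EC, and batch 4 was low in every condition. The LFC of SULF1 was −0.41 ± 0.17 (SE, adjusted p = 0.123) in EC vs. control, 0.29 ± 0.16 (SE, adjusted p = 0.333) in PG/VG vs. control and −0.69 ± 0.16 (SE, adjusted p = 0.0422) in EC vs. PG/VG. Only the last comparison passed the threshold, and it no longer did without PG/VG replicate 2, 3 or 4 or EC replicate 2, 3 or 4 (LFC −0.63 to −0.73), without batch 4 or in DESeq2.

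LOXL2 and LOX cross-link collagen and elastin by oxidizing lysines. LOXL2 measured 704, 762 and 622 CPM in control, 700.0, 726 and 585 in PG/VG and 563, 591 and 496 in EC. Each EC library of LOXL2 was below every control library. The LFC of LOXL2 was −0.34 ± 0.06 (SE, adjusted p = 0.00105) in EC vs. control, −0.055 ± 0.06 (SE, adjusted p = 0.683) in PG/VG vs. control and −0.28 ± 0.06 (SE, adjusted p = 0.0323) in EC vs. PG/VG. The EC vs. PG/VG call on LOXL2 was lost without control replicate 3, PG/VG replicate 2, 3 or 4 or EC replicate 2, 3 or 4 (LFC −0.26 to −0.30), without batch 4, and with library size as the only scaling. LOX itself was near 0 in both, at 0.0052 ± 0.08 in EC and −0.0052 ± 0.08 in PG/VG vs. control (SE, adjusted p = 0.975 and 0.981).

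Among the 3 tested fibrillar collagen chains, 2 were called in PG/VG vs. control, both higher by edgeR, beside 4.54% of all tested genes. In EC vs. control 0 of the 3 were called by edgeR or by DESeq2, beside 13.5% of all tested genes by edgeR. An unadjusted p under 0.05 in edgeR was found for 2 of the 3 in EC vs. control. COL1A1 measured 88.7, 86.5 and 51.5 CPM in control, 107, 98.6 and 63.9 in PG/VG and 98.9, 98.2 and 58.4 in EC. Both exposed libraries were above the control of their batch, and batch 4 was low throughout. The LFC of COL1A1 was 0.26 ± 0.07 (SE, adjusted p = 0.0394) in PG/VG and 0.17 ± 0.07 (SE, adjusted p = 0.108) in EC vs. control. COL5A1, a chain of the collagen V that starts fibrils, measured 215, 243 and 176 CPM in control, 311, 276 and 199.8 in PG/VG and 252, 268 and 204 in EC. COL5A1 was higher in each exposed library than in the control of its batch. The LFC of COL5A1 was 0.30 ± 0.07 (SE, adjusted p = 0.0195) in PG/VG and 0.20 ± 0.07 (SE, adjusted p = 0.0874) in EC vs. control, whereas its partner COL5A2 had 0.12 ± 0.07 (SE, adjusted p = 0.380) and −0.061 ± 0.07 (SE, adjusted p = 0.644). The PG/VG calls were lost without control replicate 2, 3 or 4, PG/VG replicate 2 or 4 or EC replicate 4 (LFC 0.22 to 0.29) for COL1A1, and without control replicate 2 or 3 or PG/VG replicate 2 (LFC 0.19 to 0.35) for COL5A1, and both were lost without batch 4.

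Of the 7 other interstitial and membrane collagens, COL7A1 was called higher in both exposures and COL13A1 lower in EC. Of all tested genes, 13.5% were called in EC and 4.54% in PG/VG vs. control. COL7A1 forms the anchoring fibrils under epithelia. COL7A1 measured 28.8, 32.8 and 67.7 CPM in control, 40.0, 42.6 and 94.3 in PG/VG and 36.6, 38.13 and 85.0 in EC. Within each batch the order was control, EC and PG/VG from low to high, and batch 4 stood above the others. The LFC of COL7A1 was 0.30 ± 0.08 (SE, adjusted p = 0.0106) in EC vs. control and 0.45 ± 0.08 (SE, adjusted p = 0.00160) in PG/VG vs. control. COL13A1, a transmembrane collagen, measured 34.6, 37.1 and 33.9 CPM in control, 32.9, 31.6 and 27.3 in PG/VG and 27.6, 30.9 and 25.1 in EC. All exposed libraries lay below all control libraries. The LFC of COL13A1 was −0.34 ± 0.09 (SE, adjusted p = 0.0104) in EC vs. control and −0.20 ± 0.09 (SE, adjusted p = 0.179) in PG/VG vs. control. The EC calls were lost without control replicate 2 or 4 or EC replicate 4 (LFC 0.27 to 0.32) for COL7A1 and without control replicate 4 (LFC −0.29 to −0.39) for COL13A1, and both were lost without batch 4. COL6A1, COL6A2, COL6A3, COL12A1 and COL17A1 were not called, with LFCs in EC vs. control of −0.50 (COL6A3, with an SE of 0.33) to 0.16 (COL6A1).

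Among the basement membrane genes, edgeR called 1 of 7 in EC vs. control, near the 13.5% of all tested genes, and 0 of 7 in PG/VG vs. control (4.54% of all tested genes), where DESeq2 also called 0 and 4 had an unadjusted p under 0.05 in edgeR. The called gene was NID2, a nidogen that links laminin to collagen IV. NID2 measured 7.05, 7.99 and 14.5 CPM in control, 9.59, 10.7 and 15.2 in PG/VG and 9.84, 11.96 and 18.4 in EC. Each exposed library of NID2 was above the control of its batch. The LFC of NID2 was 0.46 ± 0.12 (SE, adjusted p = 0.0117) in EC vs. control and 0.29 ± 0.12 (SE, adjusted p = 0.167) in PG/VG vs. control. The EC call was lost without control replicate 2 or 3 or EC replicate 3 or 4 (LFC 0.39 to 0.56), and other genes cover 30.7% of the NID2 exons, where reads that overlap more than 1 gene were left out of the counts. The other 6 were COL4A1, COL4A2, COL18A1, HSPG2, AGRN and NID1. In PG/VG vs. control all of them had an LFC above 0, from 0.030 (AGRN, agrin) to 0.47 (HSPG2, perlecan, adjusted p = 0.110), and COL4A1, a chain of collagen IV, came nearest to the threshold at 0.26 ± 0.08 (SE, adjusted p = 0.0517). In EC vs. control they ranged from −0.10 to 0.18.

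Laminins are trimers of an alpha, a beta and a gamma chain. Of the 7 tested chains, 1 was called in EC vs. control, near the 13.5% of all tested genes. In PG/VG vs. control 2 were called, beside 4.54% of all tested genes. The called chains were the alpha chains LAMA3 and LAMA5, while the alpha chain LAMA4 was not called. LAMA3, the alpha chain of the laminin that binds hemidesmosomes, measured 82.3, 92.3 and 106 CPM in control, 131, 125 and 126 in PG/VG and 107, 146 and 110.2 in EC. All exposed libraries of LAMA3 were above all control libraries. The LFC of LAMA3 was 0.37 ± 0.10 (SE, adjusted p = 0.0299) in EC and 0.45 ± 0.10 (SE, adjusted p = 0.0229) in PG/VG vs. control. LAMA5, the alpha chain of mature epithelial basement membranes, measured 84.9, 109 and 132 CPM in control, 144, 154 and 139 in PG/VG and 104, 131 and 122 in EC. The PG/VG libraries were all above the control libraries, while the EC libraries overlapped them. The LFC of LAMA5 was 0.44 ± 0.10 (SE, adjusted p = 0.0162) in PG/VG and 0.13 ± 0.10 (SE, adjusted p = 0.414) in EC vs. control, and the direct test of EC vs. PG/VG gave −0.30 ± 0.10 (SE, adjusted p = 0.169). The calls were lost without control replicate 2 or 3 or EC replicate 2 or 3 (LFC 0.20 to 0.50) for LAMA3 in EC, without control replicate 2 or 3 or PG/VG replicate 2 or 4 (LFC 0.34 to 0.59) for LAMA3 in PG/VG, and without control replicate 2 or 3 or PG/VG replicate 2 or 3 (LFC 0.31 to 0.60) for LAMA5 in PG/VG, which was also lost with PG/VG and control compared alone. LAMB1, LAMB2, LAMB3, LAMC1 and LAMA4 were not called in either exposure, with LFCs from −0.18 (LAMA4, EC) to 0.094 (LAMB1, PG/VG).

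Of the 13 tested integrin subunits, 5 were called in EC vs. control, 3 higher and 2 lower, beside 13.5% of all tested genes. In PG/VG vs. control 4 were called, all higher, beside 4.54% of all tested genes. ITGB4, whose protein pairs with the ITGA6 product in hemidesmosomes, measured 131, 143 and 118 CPM in control, 192, 194 and 146 in PG/VG and 190.2, 200.4 and 133 in EC. ITGB4 was above control in both exposed libraries of each batch. The LFC of ITGB4 was 0.40 ± 0.07 (SE, adjusted p = 0.000776) in EC and 0.43 ± 0.07 (SE, adjusted p = 0.00165) in PG/VG vs. control, whereas ITGA6 had 0.034 ± 0.07 (SE, adjusted p = 0.799) and 0.037 ± 0.07 (SE, adjusted p = 0.819). ITGB5 and ITGB8 both encode partners of the alpha V subunit (ITGAV). ITGB5, a subunit of a vitronectin receptor, measured 106, 112 and 144 CPM in control, 143, 135 and 166 in PG/VG and 152, 151 and 179.7 in EC. All EC libraries of ITGB5 were above all control libraries. The LFC of ITGB5 was 0.42 ± 0.07 (SE, adjusted p = 0.000256) in EC and 0.31 ± 0.07 (SE, adjusted p = 0.0121) in PG/VG vs. control. ITGB8, a subunit of a receptor that activates latent TGF-beta, measured 47.3, 41.4 and 40.5 CPM in control, 41.9, 38.8 and 34.4 in PG/VG and 32.2, 33.5 and 29.5 in EC. All EC libraries of ITGB8 were below all control libraries. The LFC of ITGB8 was −0.44 ± 0.08 (SE, adjusted p = 0.000895) in EC and −0.17 ± 0.08 (SE, adjusted p = 0.248) in PG/VG vs. control, and ITGAV itself had 0.0077 ± 0.07 (SE, adjusted p = 0.959) and 0.12 ± 0.07 (SE, adjusted p = 0.337). The PG/VG call on ITGB5 was lost without control replicate 2 or 3 or PG/VG replicate 2 (LFC 0.25 to 0.36).

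ITGA3, the most abundant alpha subunit and part of a laminin receptor, measured 1308, 1382 and 1718 CPM in control, 1309, 1307 and 1637 in PG/VG and 1104, 1170 and 1464 in EC. ITGA3 was lower in EC than in control in each batch. The LFC of ITGA3 was −0.24 ± 0.06 (SE, adjusted p = 0.0161) in EC and −0.049 ± 0.06 (SE, adjusted p = 0.728) in PG/VG vs. control. ITGA1 and ITGA2 encode alpha subunits of collagen receptors. ITGA2 measured 24.5, 26.4 and 66.2 CPM in control, 36.3, 29.2 and 91.0 in PG/VG and 30.1, 41.0 and 76.8 in EC. ITGA2 was above control in each exposed library of its batch, and batch 4 stood far above the others. The LFC of ITGA2 was 0.38 ± 0.12 (SE, adjusted p = 0.0439) in EC and 0.41 ± 0.12 (SE, adjusted p = 0.0646) in PG/VG vs. control. ITGA1 measured 37.7, 34.7 and 31.6 CPM in control, 47.3, 40.3 and 40.5 in PG/VG and 39.1, 39.5 and 35.6 in EC. All PG/VG libraries of ITGA1 were above all control libraries, although other genes cover 13.2% of its exons. The LFC of ITGA1 was 0.30 ± 0.08 (SE, adjusted p = 0.0343) in PG/VG and 0.14 ± 0.08 (SE, adjusted p = 0.295) in EC vs. control. ITGB3, a partner of ITGAV with 33.2% of its exons under other genes, had 0.27 ± 0.08 (SE, adjusted p = 0.0436) in PG/VG and −0.011 ± 0.08 (SE, adjusted p = 0.951) in EC vs. control.

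Several integrin calls were lost when 1 library was left out. The call on ITGA3 in EC was lost without control replicate 2, 3 or 4 (LFC −0.23 to −0.26), and with library size as the only scaling. The call on ITGA2 in EC was lost without control replicate 2, 3 or 4 or EC replicate 3 (LFC 0.19 to 0.48) and without batch 4. In PG/VG, the call on ITGA1 was lost without control replicate 2, 3 or 4 or PG/VG replicate 2 or 4 (LFC 0.27 to 0.36) and that on ITGB3 without control replicate 2, 3 or 4, PG/VG replicate 2, 3 or 4 or EC replicate 3 or 4 (LFC 0.23 to 0.31), with RLE normalization and in DESeq2, and both were lost without batch 4. ITGB1, the beta subunit shared by most of these receptors, was not called, at −0.14 ± 0.07 (SE, adjusted p = 0.185) in EC and −0.10 ± 0.07 (SE, adjusted p = 0.451) in PG/VG. ITGA5, the alpha subunit of the main fibronectin receptor, had −0.024 ± 0.06 (SE, adjusted p = 0.853) in EC and 0.066 ± 0.06 (SE, adjusted p = 0.621) in PG/VG. ITGA4 and ITGA7 were not called either, at −0.21 and −0.17 in EC.

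EC and PG/VG were then compared directly, 2 condensates at the same dilution of which only EC came from a liquid with nicotine and flavor. Of the 51 genes, 44 had an LFC below 0, that is, lower in EC, with a median of −0.139 beside 0.0024 over all tested genes. Of all 16030 tested genes, 7910 were below 0. With library size as the only scaling, 36 of the 51 were below 0 with a median of −0.105, beside 0.036 over all tested genes. Within batches 2, 3 and 4 the medians of the log2 differences were −0.245, −0.040 and −0.132, with 46, 32 and 38 of the 51 genes below 0. Without PG/VG replicate 2 the median was −0.074, with 38 genes below 0. Only FN1, SULF1 and LOXL2 passed the test, while 19 of the 51 had an unadjusted p under 0.05. TNC and FBN2 came next in adjusted p, at −0.34 ± 0.08 (SE, adjusted p = 0.0586) and −0.37 ± 0.09 (SE, adjusted p = 0.0609). At the other end, VCAN had 0.23 ± 0.13 (SE, adjusted p = 0.493). The SE of the difference had a median of 0.076 over the 51 genes, and single-gene differences near that size were not detectable.

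**Figure D4:**
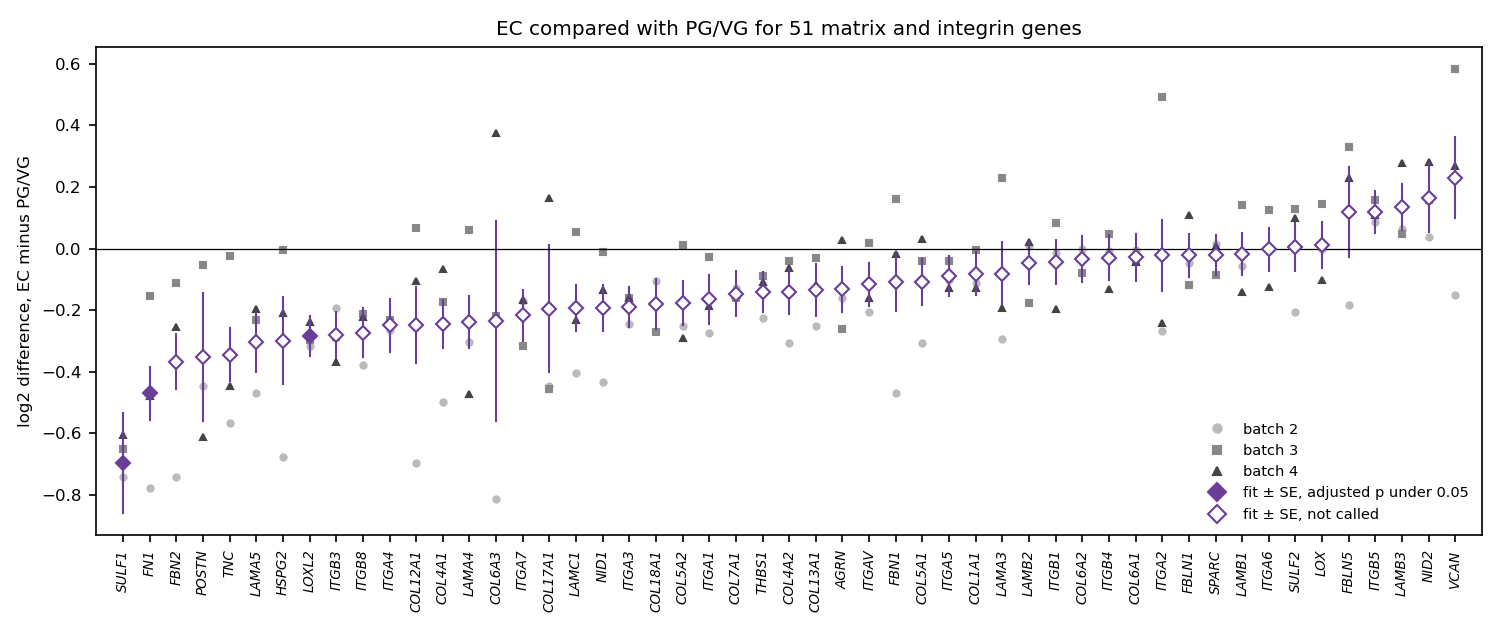
Genes are ordered by the log2 difference of EC minus PG/VG on the vertical axis. Purple diamonds give the fitted value ± SE, filled where called, and grey symbols give the difference within batch 2 (circle), 3 (square) and 4 (triangle). SULF1, FN1 and LOXL2 are filled, and 44 of the 51 diamonds are below 0.

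The genes differed more between batches than between conditions. In batch 4 vs. batches 2 and 3, 31 of the 51 genes were called (60.8%), 12 higher and 19 lower, against 40.6% of all tested genes. The absolute LFC had a median of 0.289 between batches for the 51 genes and 0.228 for all tested genes. Of the sum of squares of log2 CPM of each gene, the batch took a median of 51.7%, the condition 36.3% and the rest 7.59%, and the batch took more than the condition in 30 of the 51 genes. SULF1 (−1.62 ± 0.16), COL17A1 (1.42 ± 0.17), POSTN (−1.38 ± 0.19), VCAN (1.36 ± 0.11), ITGA2 (1.32 ± 0.10) and COL7A1 (1.17 ± 0.06) had the largest LFCs between batches (± SE). COL17A1 encodes a collagen of hemidesmosomes and was called in none of the 3 condition comparisons. FBLN5 was a contrast, with a batch LFC of 0.0015 ± 0.14 (SE, adjusted p = 0.995) and 91.8% of its sum of squares between conditions. ITGA4 had the same share of 91.8% between conditions and was called in none of the 3 condition comparisons. Without batch 4, the calls numbered 13 in EC vs. control, 10 in PG/VG vs. control and 0 in EC vs. PG/VG, where 16 genes had an unadjusted p under 0.05 in edgeR.

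**Figure D5:**
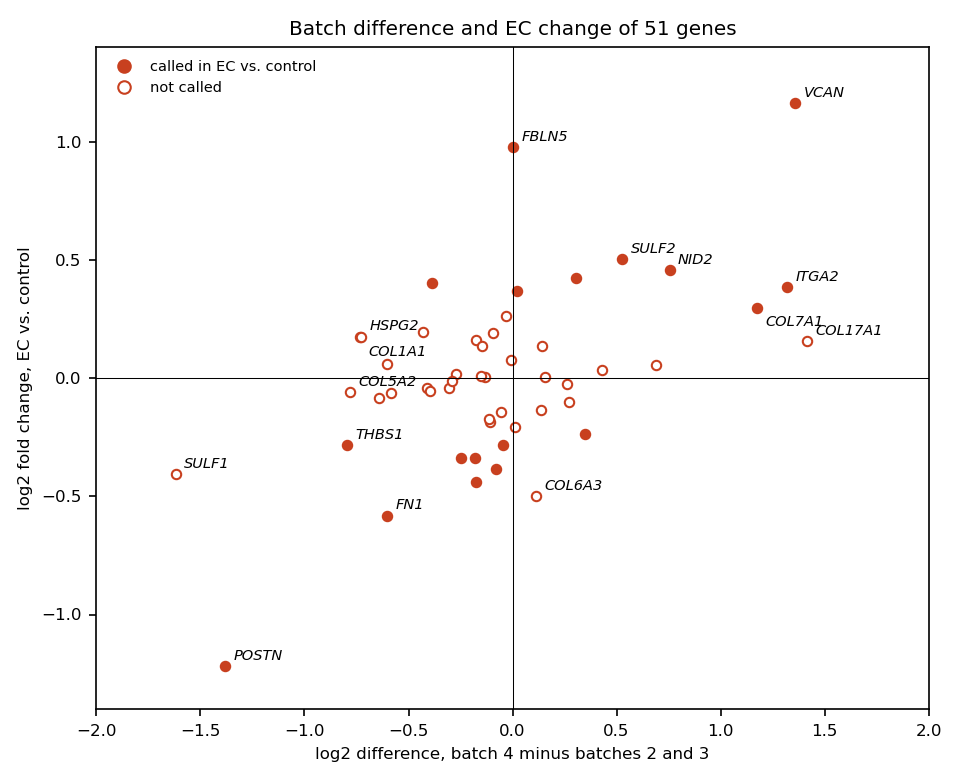
The horizontal axis is the log2 difference of batch 4 minus batches 2 and 3, and the vertical axis is the log2 fold change of EC vs. control, with 1 point per gene, filled where called in EC vs. control. SULF1, POSTN, VCAN, ITGA2, COL17A1 and COL7A1 lie far from 0 on the horizontal axis, and FBLN5 lies near 0 there and at 0.98 on the vertical axis.

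A further 102 matrix genes outside the list, of which 89 were tested, give the surroundings. Of these 89, 25 were called in EC vs. control (19 higher and 6 lower), 12 in PG/VG vs. control (11 higher and 1 lower) and 2 in EC vs. PG/VG (both lower), beside 13.5%, 4.54% and 0.855% of all tested genes. These are 28.1%, 13.5% and 2.25% of the 89. In EC vs. PG/VG, 42 of the 89 had an LFC below 0 and 47 above 0, with a median of 0.0075. Among the 51 listed genes, 44 were below 0 and the median was −0.139. Among 21 genes for collagen folding, processing and cross-linking, 7 rose and 0 fell in EC and 2 rose and 0 fell in PG/VG by edgeR (5 and 1 rose and 0 fell by DESeq2), and 1 of the 21 was lower at an unadjusted p under 0.05 in each exposure. In EC vs. control, 3 of 16 other collagen and laminin chains, 6 of 33 glycoproteins and proteoglycans, 1 of 7 other integrin subunits and 2 of 12 other matrix receptors rose, while 1, 3, 0 and 2 of them fell, and counts this small are not read against the 13.5% of all tested genes. The called collagen-processing enzymes with the largest LFCs in EC were P4HA1, a subunit of the prolyl hydroxylase that stabilizes the collagen helix, at 0.53 ± 0.08 (SE, adjusted p = 0.000143), and LOXL4, a lysyl oxidase, at 0.52 ± 0.15 (SE, adjusted p = 0.0253). The collagen chains COL16A1 and COL9A3 rose in EC by 0.99 ± 0.14 (SE, adjusted p = 4.95e-05) and 0.98 ± 0.19 (SE, adjusted p = 0.00150). LTBP1, which stores latent TGF-beta in the matrix, had 0.91 ± 0.15 (SE, adjusted p = 0.000236). VTN (vitronectin), FRAS1 and the collagen receptor subunit ITGA11 had 0.72 ± 0.21 (SE, adjusted p = 0.0289), 0.65 ± 0.14 (SE, adjusted p = 0.00262) and 0.54 ± 0.09 (SE, adjusted p = 0.000255). COL8A1, a short-chain collagen, fell. COL8A1 measured 278, 264 and 156 CPM in control, 237, 216 and 143 in PG/VG and 158, 166 and 115 in EC. It was lowest in EC in each batch, and its LFC was −0.65 ± 0.07 (SE, adjusted p = 5.93e-06) in EC vs. control and −0.43 ± 0.07 (SE, adjusted p = 0.00359) in EC vs. PG/VG. The other call in EC vs. PG/VG was DDR2, a receptor kinase for collagen, at −0.41 ± 0.08 (SE, adjusted p = 0.0107).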

How the data were processed

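The authors prepared poly-A libraries from BEAS-2B RNA, used fastp for trimming and STAR for alignment to GRCh38.p12, and counted reads on Ensembl exons with featureCounts (Subread 2.0.4), leaving out reads that mapped to several places or overlapped several genes. The strand setting is not given in the sources used here. The authors deposited raw counts, before batch adjustment, for 63187 genes in 9 libraries, and all 9 columns were used.

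A gene needed 10 counts or more in 3 libraries or more, and edgeR 4.0.16 in R 4.3.3 gave the tests (TMM factors, robust dispersions, 1 quasi-likelihood fit of the 9 libraries with condition and batch, Benjamini-Hochberg adjustment over 16030 genes, threshold 0.05). The SE of an LFC was approximated from the F statistic of its test. TPM and exon overlap used GENCODE 44 exon lengths, whose IDs matched 62666 genes, and windows of 250 bases before RefSeq start sites matched 42 of the 54 genes. The steps were tested on simulated counts.

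The label gives the batch the same number as the replicate, and batch entered the fit as the replicate block. Deviations from the condition mean correlated at 0.334 to 0.707 in the 9 pairs with the same number. In the 18 pairs with different numbers they correlated at −0.539 to 0.426, and every negative value involved a replicate 4. Among replicates 2 and 3 alone, the range was 0.334 to 0.399 with the same number and 0.280 to 0.426 with different numbers. These correlations set batch 4 apart but do not show whether replicates 2 and 3 were paired. Alternatives were no block, RLE or library-size scaling, other count filters, DESeq2 1.42.0, ComBat-Seq of sva 3.50.0 followed by DESeq2, 2 groups alone, without batch 4, and each library left out. The list, its roles, the comparison lists and the tests were chosen with earlier results of these data known. Genes called in a condition comparison were named with LFC, SE and adjusted p, per-library CPM was given for the 24 of them with the largest LFC in EC, and other matrix genes were named when called with an absolute LFC of at least 0.5 in EC. Median LFCs under alternatives, the motifs and the use of KRT7, KRT8, KRT18, VIM, THY1, PDGFRB, DDR2 and COL17A1 as examples were chosen after seeing the data.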

Additional observations from a re-analysis of the deposited data

Results flagged for a closer look

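SULF1 was lower in EC than in control in all 3 batches and higher in PG/VG than in control in all 3 batches, with the same control libraries in both comparisons. The direct difference of EC and PG/VG had an LFC of −0.69 (adjusted p = 0.0422, edgeR's quasi-likelihood test), while neither exposure alone was called (LFC −0.41 in EC and 0.29 in PG/VG). DESeq2 did not call the difference, and it was called in 3 of the 9 fits that left out 1 library.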

How the results depend on the processing

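Of the 51 genes, edgeR called 18 in EC vs. control, 14 in PG/VG vs. control and 3 in EC vs. PG/VG. Without the replicate block the counts were 0, 0 and 0, with 13, 7 and 6 genes at an unadjusted p under 0.05, and the cause was not tested. Leaving out each library in turn gave 12 to 19, 4 to 16 and 0 to 5 calls. PG/VG vs. control had 5 calls without control replicate 2, 5 without control replicate 3 and 4 without PG/VG replicate 2. EC vs. PG/VG had 0 calls without PG/VG replicate 2, PG/VG replicate 4 or EC replicate 4 (12, 18 and 15 at an unadjusted p under 0.05), 1 without EC replicate 2, and 5 without control replicate 2 or 4. It had 7 calls with no filter, 7 with the 2 groups alone, 12 with ComBat-Seq and DESeq2, 4 with DESeq2 and the batch in the model, and 0 without batch 4 (16 at an unadjusted p under 0.05). ComBat-Seq and DESeq2 gave 24 and 20 calls in the comparisons with control. In simulated counts with 200 changed genes, this setting made 36 false calls in EC vs. control, against 8 for edgeR with the replicate block. Leaving out each library in turn gave 30 to 34 calls between batch 4 and batches 2 and 3.

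Of the 35 called values, 15 kept their call in each of the 9 leave-one-out fits. Over all 18 alternatives, 493 of 630 values kept the call, 137 lost it and 0 reversed. The SE of an LFC was 0.064 to 0.33 over the 51 genes, the largest for COL6A3, which had 16 to 29 counts per library. For abundant genes such as FN1 and ITGB1 the SE was no smaller than for some genes with fewer counts.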
